A study of Mus musculus with 8 samples.

Results

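The genes described here encode inhibitors of the cyclin-dependent kinases (Cdks), with Cdkn1c left out, and the retinoblastoma (pocket) proteins. They were taken by symbol: Cdkn1a, Cdkn1b, Cdkn2a, Cdkn2b, Cdkn2c and Cdkn2d among the inhibitors, and Rb1, Rbl1 and Rbl2 among the pocket proteins. All 9 were among the 18193 genes with a singly named probe set on the array, and together they had 16 probe sets. Each gene was read from its brightest probe set (mean of the 8 arrays), and the other probe sets served as a check.

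RNA came from sorted LSK cells, the fraction of mouse bone marrow low in lineage markers, positive for Sca1 and high for cKit, in which the blood stem cells lie. There were 4 arrays from wild type C57BL/6 mice and 4 from C57BL/6 mice heterozygous for Jak2V617F, a constitutively active form of the kinase that serves the erythropoietin and thrombopoietin receptors. The labels gave no treatment, age, sex or Cre driver, and each array held 1 mouse. Values were deposited log2 intensities, and a change is the mutant minus the wild type mean, so a change of 1 is 2-fold.

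Cell division is held back in G1 by 2 layers of proteins. Ink4 proteins (from Cdkn2a to Cdkn2d) bind Cdk4 and Cdk6 and keep D cyclins off them, whereas Cip and Kip proteins (Cdkn1a encodes p21, Cdkn1b encodes p27) act chiefly on cyclin E and cyclin A complexes with Cdk2. Active Cdks phosphorylate the pocket proteins, which otherwise hold E2f factors and silence the genes of DNA replication. In blood stem cells these brakes are known for their part in quiescence, and loss of the pocket proteins together expands early blood progenitors.

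The start-site regions of 3 of the genes are shown for their readings here and for the matches of letters they hold. None of the 9 genes was called (limma). Arrays of the genotypes did not overlap for Rbl2, as for 10.1% of all genes, and overlapped for Rbl1. For Cdkn1a they overlapped on the brightest probe set and narrowly did not on the other. RefSeq windows of GRCm38.p6, from 250 bases before to 50 bases after a transcript start, were found for 8 of the 9 genes, with 11 windows in all. Capitals mark matches to the motifs searched on both strands: the E2F words TTTCCCGC, TTTCGCGC, TTTGCCGC and TTTGGCGC, the CHR word TTTGAA read by DREAM-type complexes (its reverse complement is TTCAAA), the Stat word TTCNNNGAA, the Foxo word TGTTTAC and the core ACATGT of p53 sites. The windows lie at chr8:91069807-91070106 on the plus strand (Rbl2), chr2:157204485-157204784 on the minus strand (Rbl1) and chr17:29090729-29091028 on the plus strand (Cdkn1a, the upstream of 2 annotated starts).
Rbl2: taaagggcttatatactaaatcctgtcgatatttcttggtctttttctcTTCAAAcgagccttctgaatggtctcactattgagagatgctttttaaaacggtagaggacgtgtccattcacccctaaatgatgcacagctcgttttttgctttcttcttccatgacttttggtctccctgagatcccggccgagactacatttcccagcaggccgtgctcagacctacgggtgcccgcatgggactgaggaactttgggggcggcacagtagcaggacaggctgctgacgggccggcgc
Rbl1: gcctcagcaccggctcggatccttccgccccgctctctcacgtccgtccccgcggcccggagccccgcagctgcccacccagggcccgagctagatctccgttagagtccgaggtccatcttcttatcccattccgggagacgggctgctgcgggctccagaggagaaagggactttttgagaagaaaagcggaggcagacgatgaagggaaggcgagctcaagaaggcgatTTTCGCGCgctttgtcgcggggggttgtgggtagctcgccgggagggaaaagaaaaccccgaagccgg
Cdkn1a: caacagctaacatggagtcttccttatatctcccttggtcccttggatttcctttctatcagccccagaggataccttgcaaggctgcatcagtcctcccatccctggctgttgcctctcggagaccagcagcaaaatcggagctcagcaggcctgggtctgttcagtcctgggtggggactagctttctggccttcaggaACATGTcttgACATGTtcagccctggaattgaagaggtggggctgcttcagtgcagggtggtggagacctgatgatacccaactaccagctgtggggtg

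An E2F word lay at base -18 of Rbl1 and at base -99 of the upstream Cdkn2a start, the start known for the Arf transcript, and such a word was found in 2.26% of 32851 windows of this length. A CHR word lay at base -201 of Rbl2 and at base -161 of Cdkn2b, against 17.9% of all windows. The 2 matches to the p53 core at bases -49 and -39 of Cdkn1a were a pair found in 0.329% of windows. The Stat and Foxo words, present in 8.3% and 3.65% of all windows, were not found in the 11 windows of these genes. These are matches of letters only.

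In the comparison of genotypes, which asked what the mutant kinase does to transcription in early blood cells, Rbl2 transcript lay lower in every mutant array and the other 8 genes overlapped between genotypes. None of the 9 was called (limma adjusted p from 0.138 to 0.957), where 0.165% of all genes, 30 in number, were called. Before adjustment, limma gave p under 0.05 for 1 of 9, or 11.1%, where it did so for 17.2% of all genes and for 5.23% on the lower side. The arrays of the 2 genotypes did not overlap for 1 of 9, against 10.1% of all genes in either direction and 3.33% on the lower side. Of the 9 genes 4 lay above 0 and 5 below, with 37.4% of all genes below 0, and their median change was -0.013 beside 0.054 over all genes. Over all genes, calls were 19 higher and 11 lower (37 and 10 after median centring). That total fell to 13 or 16 when wild type array 2 or 3 was left out, and to 19, 16 or 14 when mutant array 1, 2 or 4 was. Because these are bulk samples, fewer cells with a transcript and less transcript per cell cannot be told apart.

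**Figure D1:**
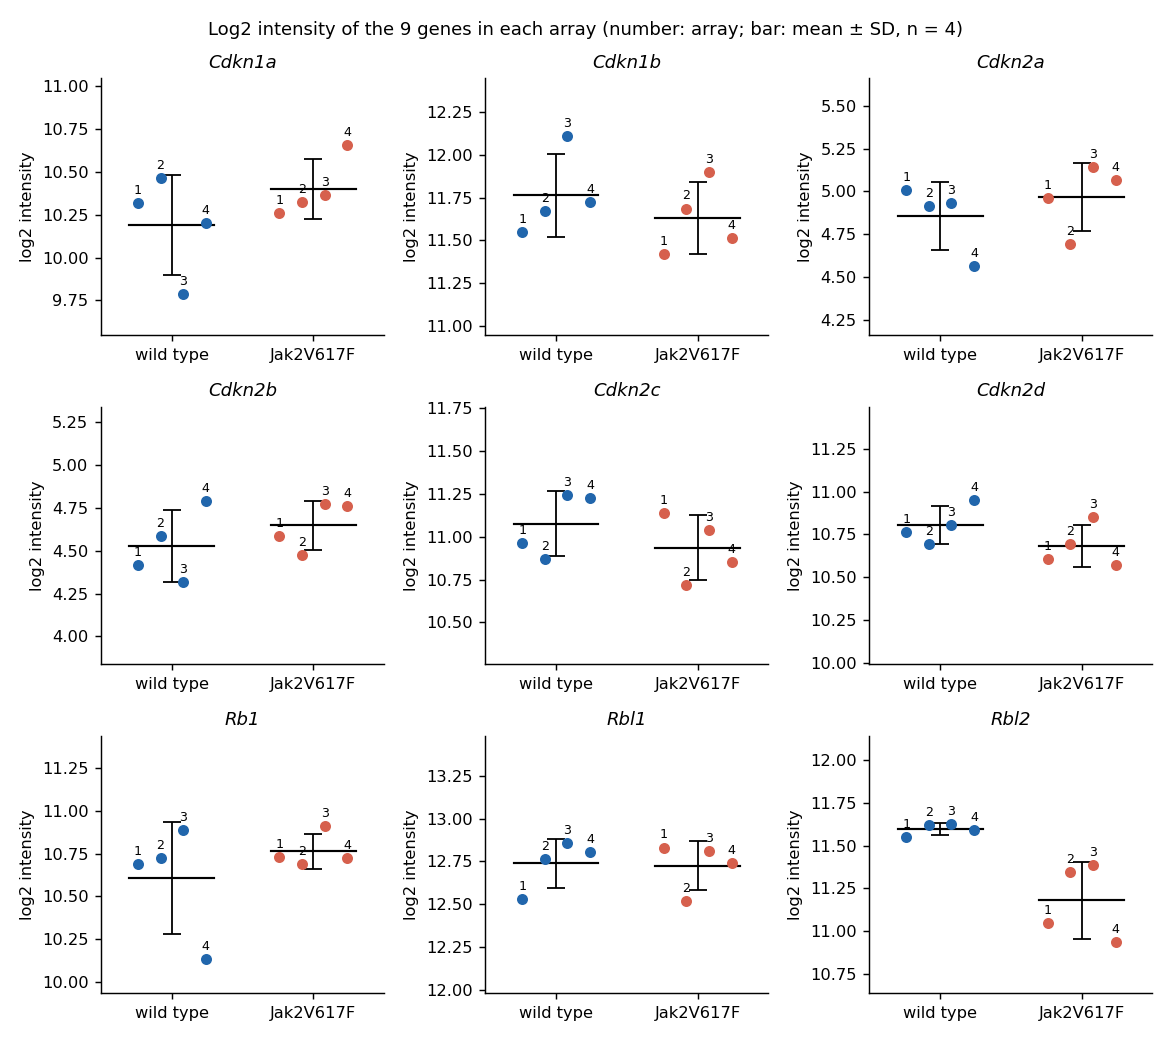
Log2 intensity of each gene (vertical axis, the same span in each panel) in the 4 wild type and 4 Jak2V617F arrays, with the array number at each point and black bars for the mean ± SD. For Rbl2 the mutant arrays, from 10.93 to 11.39, lie under the wild type arrays, from 11.55 to 11.63, and for each of the other 8 genes the groups overlap.

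Rbl2 (chr8:91070057-91123844) encodes p130, the pocket protein of resting cells, which with E2f4 and the MuvB proteins forms the DREAM repressor. Its log2 intensity was 11.55, 11.62, 11.63 and 11.59 in wild type arrays 1 to 4, and 11.05, 11.35, 11.39 and 10.93 in mutant arrays 1 to 4. The wild type arrays were nearly alike, and mutant arrays 1 and 4 were the lowest of the 8. The means were 11.60 ± 0.03 and 11.18 ± 0.22 (SD, n = 4 each), a change of -0.42 ± 0.11 (SE) with a 95% interval from -0.66 to -0.18, or 1.34-fold lower. This did not pass limma's adjustment over all genes (adjusted p = 0.138), and the exact permutation test gave p = 0.0286, the smallest that 4 arrays against 4 allow (two-sided). Any gene whose arrays do not overlap gives that permutation p, and 10.1% of all genes did not overlap, so it adds nothing to the lack of overlap. A change at or below that of Rbl2 was found for 2.5% of all genes. The wild type SD was small for the array, at percentile 3.28 of all genes.

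A further probe set of Rbl2, 1418146_a_at, gave the same picture as 1425981_a_at above. It read 10.14, 10.10, 10.16 and 10.32 in wild type and 9.71, 10.07, 9.80 and 9.58 in mutant arrays, so that the genotypes again did not overlap and mutant arrays 1 and 4 were again lowest. The change was -0.39 ± 0.11 (SE; limma adjusted p = 0.152 over all probe sets). Across the 8 arrays the probe sets had a Pearson correlation of 0.91, and of 0.71 on deviations from the genotype means, which describes probes that share the same RNA. Both names end in _a_at, the array's mark for probes common to several transcripts of a gene. With 1 array left out at a time the change of 1425981_a_at ran from -0.49 to -0.34 and that of 1418146_a_at from -0.48 to -0.32.

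Xist and Y-linked transcripts placed 2 wild type mice and 1 mutant mouse as female. Among the male arrays Rbl2 was 11.63 and 11.59 in wild type and 11.05, 11.35 and 10.93 in mutant mice, a change of -0.50 ± 0.14 (SE; limma adjusted p = 0.203). Between female arrays it was 11.55 and 11.62 against 11.39 in the single mutant female. With sex as a covariate the change was -0.39 (limma adjusted p = 0.156).

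Markers of mature cells also differed between the arrays. Their mean log2 level ran from 8.996 to 9.59 in wild type and from 9.66 to 10.19 in mutant arrays for macrophage and dendritic cell genes, with 13 of 13 above 0. It ran from 7.93 to 8.61 and from 8.59 to 9.59 for erythroid genes (9 of 9 above 0) and from 10.71 to 11.87 and from 11.37 to 12.66 for granulocyte genes (6 of 6). Megakaryocyte genes (8 of 8 above 0) ran from 8.16 to 8.54 and from 8.34 to 8.93, and mast cell and basophil genes (6 of 7) from 8.06 to 9.25 and from 8.68 to 9.28. In each of these lists 0 genes were called (limma). An unadjusted limma p under 0.05 was reached by 7 macrophage and dendritic, 4 erythroid, 2 granulocyte, 3 megakaryocyte and 4 mast cell and basophil genes, all higher. Over all genes 17.2% reached it, and 37.4% lay below 0. The part of these markers in the Rbl2 difference was not tested. The LSK markers themselves were bright, with all 8 measured above the median of all genes (9.09). Their levels were not alike between genotypes: Cd48 (0.35), Mecom (-0.34) and Cd34 (-0.12) did not overlap and Slamf1 differed by 0.72, while 0 of the 8 were called (limma; 3 at an unadjusted p under 0.05), and Kit differed by 0.021. Of lymphoid markers 0 of 5 T cell, 0 of 4 NK cell and 2 of 5 B cell genes (Cd79b and Vpreb1) reached that median. Their changes were above 0 for 4 of 5, 3 of 4 and 2 of 5 genes, and 0 were called (limma; 3 T cell genes, 2 higher and 1 lower, and 1 NK cell gene at an unadjusted p under 0.05).

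**Figure D2:**
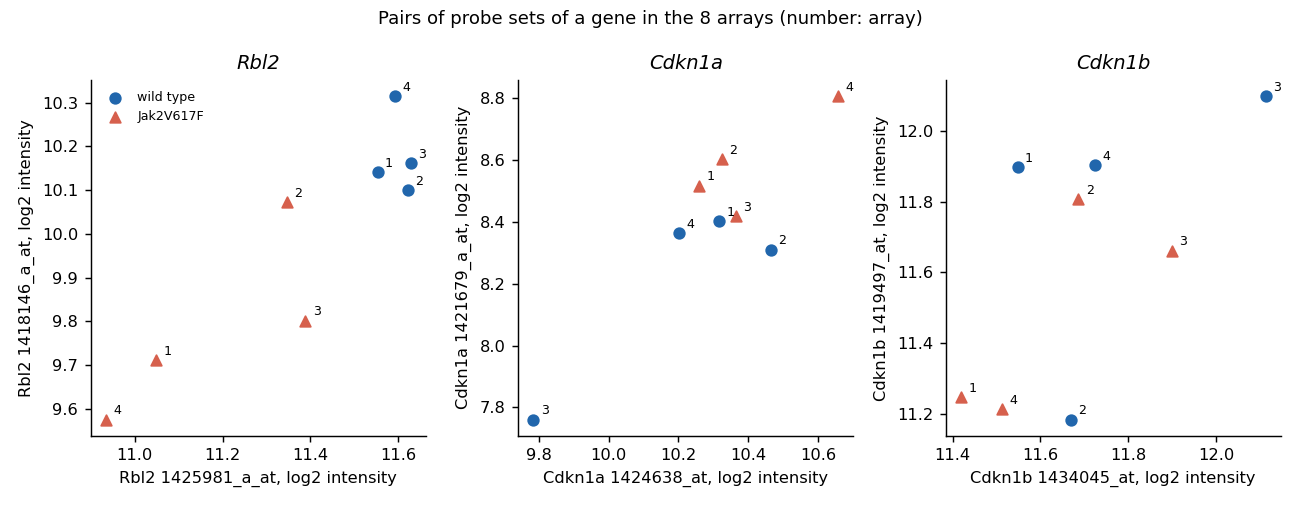
Each panel plots one probe set of a gene against another in log2 intensity, with blue circles for wild type arrays, red triangles for Jak2V617F arrays and the array number at each point. The genotypes separate on both axes for Rbl2, on the vertical axis alone for Cdkn1a (8.42 to 8.81 against 7.76 to 8.402), and on neither for Cdkn1b.

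Rbl1 and Rb1, the other pocket protein genes, did not share this difference. Rbl1 (chr2:157145893-157204534), which encodes p107 and is induced by E2f factors in cycling cells, read 12.53, 12.76, 12.86 and 12.80 in wild type and 12.83, 12.52, 12.81 and 12.74 in mutant arrays. The groups lay on top of each other, with a change of -0.013 ± 0.10 (SE) and a 95% interval from -0.24 to 0.21 (limma adjusted p = 0.957), so a change as large as that of Rbl2 lies outside the interval. A second bright probe set of Rbl1 read 11.17 ± 0.10 and 11.21 ± 0.27 (SD, n = 4 each), and its 2 dim ones differed by -0.19 and 0.17 with overlapping arrays. The sign of so small a value has no meaning here: it turned to 0.031 after median centring.

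Rb1 (chr14:73192858-73325951) encodes the retinoblastoma protein itself, the main pocket protein bound to activating E2f factors. It read 10.69, 10.73, 10.89 and 10.14 in wild type and 10.73, 10.69, 10.91 and 10.72 in mutant arrays. Wild type array 4 stood below the other 7, which spanned 10.69 to 10.91. The change was 0.15 ± 0.15 (SE; limma adjusted p = 0.604) and -0.0044 without wild type array 4. A dimmer Rb1 probe set did not show that array as low (6.10, against 5.88 to 5.96 in the other wild type arrays). It differed by 0.17 ± 0.09 (SE). Its mean of 6.05 lay below the median probe set level (7.11), so it says little about Rb1 in that array.

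Within each array, the log2 difference of Rbl1 minus Rbl2 went from 1.14 ± 0.11 in wild type to 1.54 ± 0.30 in mutant cells, and that of Rb1 minus Rbl2 from -0.99 ± 0.32 to -0.42 ± 0.19 (SD, n = 4 each). Only the shift between genotypes can be read from these values, since probe sets differ in brightness for reasons of their own. For Rb1 minus Rbl2 the arrays did not overlap (-1.46 to -0.74 against -0.66 to -0.21). The lowest value was that of wild type array 4, in which Rb1 read low, and the other wild type arrays lay between -0.90 and -0.74. Rbl2, which did not overlap by itself, is a part of this difference. For Rbl1 minus Rbl2 the arrays overlapped, since mutant array 2 (1.17) lay among the wild type arrays (0.98 to 1.23).

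Cdkn1a (chr17:29090979-29100722), the p53 target that encodes p21, lay slightly higher in mutant cells, by an amount that depended on 1 wild type array. It read 10.32, 10.46, 9.78 and 10.20 in wild type and 10.26, 10.32, 10.36 and 10.66 in mutant arrays. Mutant array 4 was highest and wild type array 3 lowest, and the rest were mixed. The change was 0.21 ± 0.15 (SE; 95% interval from -0.13 to 0.55; limma adjusted p = 0.479), and it was 0.074 without wild type array 3.

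On a second Cdkn1a probe set, 1421679_a_at, all 4 mutant arrays lay above the wild type arrays. It read 8.402, 8.31, 7.76 and 8.36 in wild type and 8.52, 8.60, 8.42 and 8.81 in mutant arrays, a change of 0.38 ± 0.15 (SE; limma adjusted p = 0.252 over all probe sets). The genotypes were close at their edges, 8.402 against 8.42, and the change was 0.23 without wild type array 3. Of the 16 probe sets of the 9 genes 3 did not overlap between genotypes, this one and both of Rbl2, or 18.8% against 10.2% of all probe sets, and 0 were called (limma), with 0.244% of all probe sets called and 3 of the 16 at an unadjusted p under 0.05, or 18.8% against 17.2% of all probe sets. The 2 Cdkn1a probe sets varied together over the arrays, with a Pearson correlation of 0.88 (n = 8), in which wild type array 3 was the lowest on both.

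Cdkn1b (chr6:134920401-134925525), which encodes p27, lay lower on average with partial overlap. Mutant arrays 1 and 4 lay under the wild type range and wild type array 3 above the mutant range. It read 11.55, 11.67, 12.11 and 11.72 in wild type and 11.42, 11.69, 11.90 and 11.51 in mutant arrays, with array 3 highest in both groups. The change was -0.13 ± 0.14 (SE; 95% interval from -0.46 to 0.19; limma adjusted p = 0.633). Its other probe set, 1419497_at, differed by -0.29 ± 0.21 (SE), and on it wild type array 2 (11.18) lay with mutant arrays 1 and 4 (11.25 and 11.21), apart from the other 5 arrays (11.66 to 12.10). The change of 1434045_at was -0.018 without wild type array 3 and -0.38 among male arrays alone (limma adjusted p = 0.966 and 0.274). Cdkn1c, the Kip family gene not counted among the 9, read 8.05 ± 0.21 and 8.12 ± 0.18 (SD, n = 4 each), a change of 0.078 (limma adjusted p = 0.763).

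**Figure D3:**
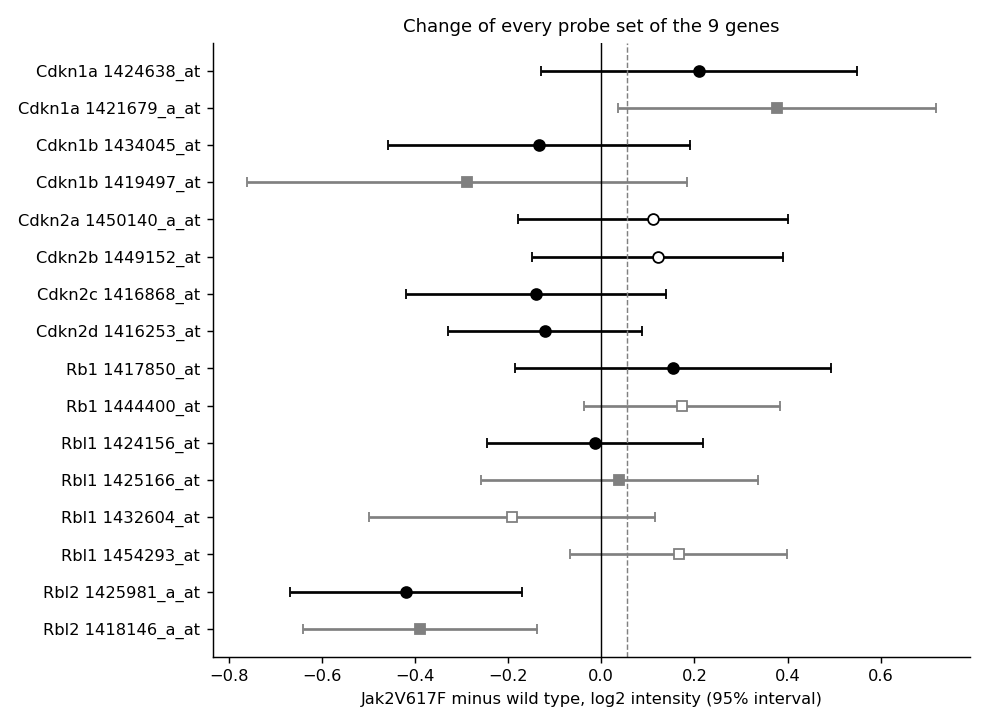
Change of all 16 probe sets, mutant minus wild type in log2 intensity, with 95% intervals from limma: black circles for the probe set that represents a gene, grey squares for its others, open symbols for probe sets below the median level (7.11), and a dashed line at the median change of all genes (0.054). The intervals of both Rbl2 probe sets and of 1 Cdkn1a probe set leave out 0.

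The Ink4 genes fell into a bright and a dim pair. Cdkn2c (chr4:109660876-109666756), which encodes p18 and is known as a limit on stem cell self-renewal, read 10.96, 10.87, 11.24 and 11.23 in wild type and 11.14, 10.72, 11.04 and 10.85 in mutant arrays. The groups overlapped and the change was -0.14 ± 0.12 (SE; 95% interval from -0.42 to 0.14; limma adjusted p = 0.559). Cdkn2d (chr9:21288459-21291421), which encodes p19Ink4d, read 10.76, 10.69, 10.81 and 10.95 in wild type and 10.61, 10.69, 10.85 and 10.57 in mutant arrays. Mutant arrays 1 and 4 lay under the wild type range, and mutant array 2 at its low edge. Its interval was the narrowest of the 9, from -0.32 to 0.078, around a change of -0.12 ± 0.09 (SE; limma adjusted p = 0.488). Each of these genes had 1 probe set.

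Cdkn2a (chr4:89274473-89294619) and its neighbour Cdkn2b (chr4:89306289-89311032), the senescence-associated locus that Polycomb proteins keep silent in stem cells, read at the level of genes that blood cells do not use. Cdkn2a read between 4.56 and 5.01 in wild type and between 4.69 and 5.14 in mutant arrays, and Cdkn2b between 4.32 and 4.79 and between 4.47 and 4.77. A list of 17 measured genes restricted to other tissues, such as Umod of the kidney (3.76) and Alb of the liver (5.44), had a median of 5.43, with Mbp (12.77) and Prm1 (8.34) well above the rest. Background differs by probe set, so this is a guide and not a limit of detection. The changes, 0.11 ± 0.13 and 0.12 ± 0.12 (SE; limma adjusted p = 0.662 and 0.601), therefore say little about either transcript. The single Cdkn2a probe set does not separate the p16Ink4a and p19Arf transcripts. A filter at the median probe set level left 7 of the 9 genes, these 2 being the ones removed.

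Across the arrays the genes did not rise and fall as a block. Pearson correlations over the 8 arrays, given as a description of arrays that share processing and genotype, were -0.68 between Cdkn1a and Cdkn1b and -0.70 between Cdkn1a and Cdkn2c, and on deviations from the genotype means -0.63 and -0.64. Rbl2 went with Cdkn2d (0.73, and 0.65 on deviations) and Cdkn1b (0.60 and 0.64), and hardly with Rbl1 (-0.04 and -0.15). The highest correlation was that of Rb1 with the dim Cdkn2a (0.80, and 0.77 on deviations), and Cdkn2c went with Rbl1 (0.72 and 0.76). Wild type array 3 was lowest in Cdkn1a and highest in Cdkn1b and Cdkn2c of the 8 arrays.

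The genes above the median level most like Rbl2 over the 8 arrays were Itpkb, an inositol trisphosphate kinase gene (Pearson correlation of 0.99), Zfp672 (0.98) and Oip5os1, also known as the noncoding RNA Cyrano (0.98). Of 9095 genes 128 had a correlation over 0.9 with it. Their changes were smaller than that of Rbl2, at -0.18, -0.18 and -0.21 (limma adjusted p = 0.262, 0.240 and 0.224). For Cdkn1a, the member with the next smallest p among the bright ones, they were the proteasome gene Psmd8 (0.99), the chaperone partner gene Bag1 (0.97) and D6Wsu163e (0.96), with changes of 0.039, 0.074 and 0.080 that were not called (limma adjusted p = 0.760, 0.579 and 0.566). Of 9095 genes 35 had a correlation over 0.9 with Cdkn1a. The named genes were picked as the highest of 9095 on 8 arrays, so these correlations are a description only.

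The partners and targets of these proteins were read in the same fit. The counts of this list and of those below stand beside shares over all genes. Of all genes 37.4% lay below 0, and 17.2% had an unadjusted limma p under 0.05, with 5.23% on the lower side. Of 17 E2f and DREAM subunit genes 6 lay above 0 and 11 below, with a median of -0.047, and 0 were called (limma; 3 at an unadjusted p under 0.05, all lower). Lin52, which joins p130 to the MuvB core, had the smallest p of the list. Lin52 was also the dimmest gene of the list, with a mean of 7.15. It read 7.56, 7.24, 7.38 and 7.45 in wild type and 6.53, 7.02, 7.12 and 6.91 in mutant arrays, a change of -0.51 ± 0.13 (SE; limma adjusted p = 0.138) without overlap. Tfdp2, a dimer partner of E2f factors, and E2f3 each differed by -0.20, and the mitotic factor gene Foxm1 by 0.25 (limma adjusted p = 0.283, 0.291 and 0.388).

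Among 18 cyclin, Cdk and Cdc25 genes 12 lay above 0 and 6 below, with a median of 0.041 and 0 called (limma; 3 at an unadjusted p under 0.05, all higher). Ccne1, the cyclin E gene whose kinase is the target of p21 and p27, read 9.85, 10.07, 9.92 and 10.17 in wild type and 10.34, 10.30, 10.33 and 10.55 in mutant arrays. All mutant arrays were above all wild type arrays, by 0.38 ± 0.09 (SE; limma adjusted p = 0.134). Cdc25c, a phosphatase of mitotic entry, differed by 0.35 and Ccnb2, a cyclin B gene, by 0.16 (limma adjusted p = 0.229 and 0.444), and the germ cell cyclin gene Ccna1 was near background (4.39 and 4.75). The 26 E2f targets, which include Ccne1, had 17 above 0 and 9 below, a median of 0.019 and 0 called (limma; 1 at an unadjusted p under 0.05, Ccne1 itself). The helicase genes Mcm2 (0.23) and Mcm7 (0.13) and the clamp loader gene Rfc4 (0.20) came next.

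Proliferation markers lay above 0 in 10 of 11 genes, with a median of 0.16 and 0 called (limma; 2 at an unadjusted p under 0.05). These were the mitotic genes Cdc20 (0.23) and Plk1 (0.40), followed by Foxm1 (0.25) and Bub1 (0.25). Their mean level was 12.21, 12.33, 12.27 and 12.45 in wild type and 12.56, 12.20, 12.62 and 12.49 in mutant arrays, with mutant array 2 the lowest of the 8 and the other mutant arrays the highest. Rbl2 read 11.05, 11.35, 11.39 and 10.93 in mutant arrays 1 to 4. Mutant array 3, the highest of the 8 in these markers, had the highest Rbl2 of the mutant arrays. Mutant arrays 1 and 4, also high in these markers, had the lowest Rbl2. How Rbl2 relates to these markers was not tested.

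**Figure D4:**
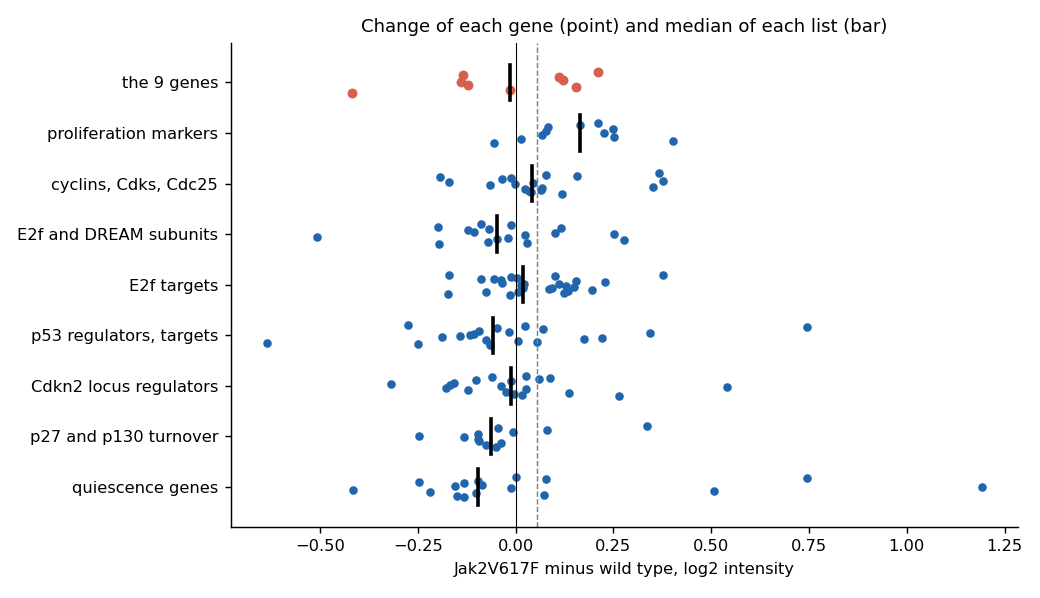
Change of each gene (points) and the median of each list (black bars), mutant minus wild type in log2 intensity, for the 9 genes in red and 8 lists of their partners, targets and regulators in blue, with a dashed line at the median of all genes (0.054). List medians lie between -0.096 and 0.16, and no point on the plot is a called gene.

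The regulators of these genes were not called either. Of 20 p53 regulators and targets 8 lay above 0 and 12 below, with a median of -0.057 and 0 called (limma; 2 at an unadjusted p under 0.05). Stress gene Gadd45a differed by 0.34 and the death receptor gene Tnfrsf10b, which was dim (6.65), by -0.64. The antiproliferative gene Btg2 differed by 0.74 and the nuclease gene Aen by -0.28 (limma adjusted p of these genes from 0.251 to 0.314). Trp53 and Bax had no singly named probe set, and the part of p53 in the Cdkn1a reading was not tested. Of 19 regulators of the Cdkn2 locus 8 lay above 0 and 11 below, with a median of -0.012 and 0 called (limma; 3 at an unadjusted p under 0.05). Id1, which opposes Ets factors at Cdkn2a, went from 7.19 ± 0.20 to 7.73 ± 0.06 and Ets2 from 13.51 ± 0.12 to 13.19 ± 0.09 (SD, n = 4 each), each without overlap (limma adjusted p = 0.0819 and 0.140). Tbx2 was near background (4.08 and 4.34), and the Polycomb methylase gene Ezh1 differed by -0.17.

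Of 12 genes for turnover of p27 and p130 or for Foxo control of Cdkn1b 2 lay above 0 and 10 below, with a median of -0.064 and 0 called (limma; 1 at an unadjusted p under 0.05). The ubiquitin-conjugating enzyme gene Cdc34 differed by 0.34, Foxo1 by -0.25, Foxo3 by -0.13 and the p27 kinase gene Uhmk1 by -0.077 (limma adjusted p from 0.218 to 0.509). Among 17 genes associated with quiescence 6 lay above 0 and 11 below, with a median of -0.096 and 0 called (limma; 1 at an unadjusted p under 0.05). That was Ndn, an imprinted growth suppressor gene, at -0.42, whereas Btg2 (0.74) and the Krüppel-like factor gene Klf2 (1.19) lay on the other side, so the list was split.

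**Figure D5:**
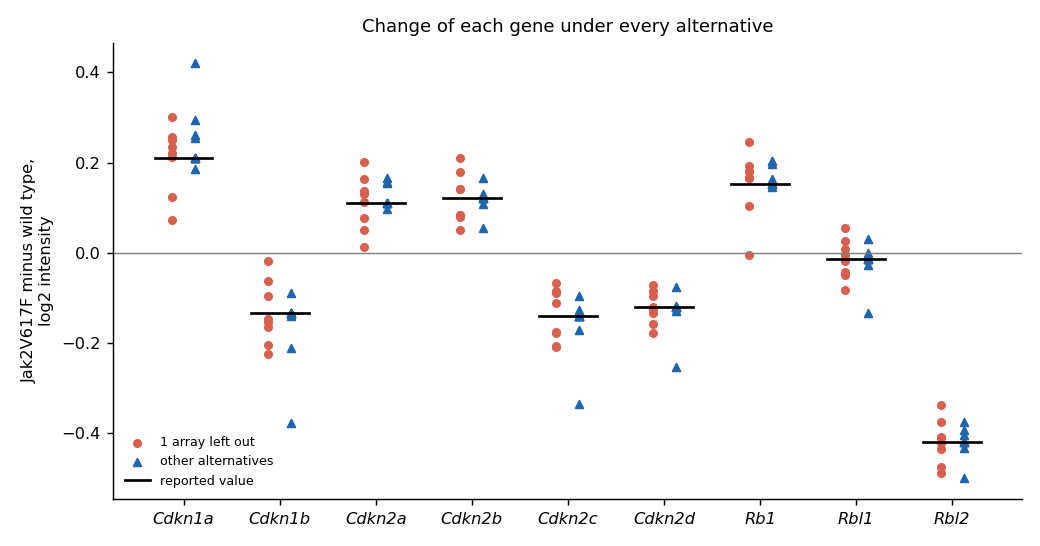
Change of each gene, mutant minus wild type in log2 intensity, as reported (black bar), with 1 array left out (red circles) and under the other alternatives of processing (blue triangles). Rbl2 stays between -0.50 and -0.34, whereas Rb1 and Rbl1 cross 0.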

How the data were processed

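Per the labels' protocols, RNA of sorted LSK cells was amplified linearly (NuGEN Ovation) and read on Affymetrix mouse arrays. The authors made the deposited log2 intensities with RMA and affy in R 2.11.0, per the submitters' processing notes, with the scale read from the values. RMA evens out the distribution of arrays, so a shift of most transcripts one way would not be seen. Scan batches were not used, and the chip definition is not given in the sources used here. Array medians lay between 7.06 and 7.15.

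Probe sets were named by the platform annotation. Of 45101, 64 were controls and 34945 had 1 symbol, of which 34741 matched RefSeq genes of GRCm38.p6. Each gene took its brightest probe set. Genotypes were compared with limma 3.58.1 in R 4.3.3 over 18193 genes, two-sided, with Benjamini-Hochberg adjustment at 0.05; other probe sets were tested over all probe sets. Separate mice are described by the labels. Scripts were tested on simulated data. The members and lists were chosen with earlier results of these data known. Named genes were the members, up to 4 of each list by smallest p, and 3 by correlation for each of 2 members. Further genes were named after their values were seen, and so were the contrasts within an array and the motifs. Alternatives were a replicate block, median centring, a filter on dim genes, other choices of probe set, other variance models, sex, each array left out, a threshold of 0.10 and exact permutation. Other probe sets without single arrays or by sex were added after seeing the data. List genes that no singly named probe set represents are left out.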

Additional observations from a re-analysis of the deposited data

Results flagged for a closer look

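Among 32 groups of 4 arrays, 1 for each probe set of the 9 genes and each genotype, 1 array stood far from the others. Wild type array 3 read 7.76 on the Cdkn1a probe set 1421679_a_at, where the other wild type arrays read 8.31 to 8.402 (Dixon's ratio 0.856, above its critical value). Chance alone gives about 1 such group in 20. The other Cdkn1a probe set was also lowest in that array, at 9.78.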

How the results depend on the processing

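Of the 9 genes, 0 were called (limma) under any alternative run. Rbl2 was below 0 under all 19 alternatives, from -0.50 to -0.34, with limma adjusted p from 0.104 (trended robust prior) to 0.292 (without mutant array 4). Some of these leave the Rbl2 change at -0.42 by construction, so its direction could not differ. They are the replicate block, the filter on dim genes, all probe sets, the trended prior, the 0.10 threshold and exact permutation. The rest could move it. The exact permutation p of Rbl2, 0.0286, is on the other side of 0.05 from its adjusted limma p, and is not adjusted over genes. Rbl2 has no value without _s_at, _x_at and _a_at probe sets, nor does Cdkn2a, and the filter on dim genes removes Cdkn2a and Cdkn2b. Rbl1 turned to 0.031 after median centring and to 0.00019 with probe sets averaged. Leaving out 1 array moved Rbl1 between -0.083 and 0.055 and Rb1 between -0.0044 and 0.25. The second bright Rbl1 probe set was -0.0026 with sex as a covariate and lay between -0.074 and 0.13 with 1 array left out. The cause was not tested. Directions of the other genes held.

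Calls over all genes, 30 in the reported fit, were 47 after median centring, 49 with probe sets averaged, 110 over probe sets, 60 with sex as a covariate, 75 with a trended robust prior, 199 at a threshold of 0.10, and 13 to 40 with 1 array left out. Of the pathway genes, 1 (Id1) was called at 0.10. Medians of lists moved by more than the spread of arrays in 4 of 152 cases. The replicate numbers did not pair the samples: same-numbered deviations correlated at -0.0233, -0.221, -0.0558 and 0.103, and 1 of 4 pairs correlated best with its own number. With the replicate block, 8 genes were called and Rbl2 was -0.42 (limma adjusted p = 0.213). The number of arrays limits the precision, and no detection calls were used.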
